A study of Homo sapiens with 8 samples.

Results

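The 10 genes described here encode the machinery that ties secretory organelles to actin tracks: the small GTPases RAB27A and RAB27B, their effectors MLPH, SYTL1, SYTL2, SYTL4 and SYTL5, and the class V myosins MYO5A, MYO5B and MYO5C. They were chosen by name and are 10 of the 56632 genes in the count table. The list was drawn up with earlier results of these data known, so the levels and differences of the 10 genes are given as a description, without p-values. All 10 passed the filter on low counts, which left 18431 genes.

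RAB27 proteins sit on the membrane of secretory granules and lysosome-related organelles and, in their GTP-bound form, recruit effectors. Melanophilin, encoded by MLPH, is the effector that links RAB27A on the melanosome to myosin Va, and loss of any of these proteins causes the pigment dilution of Griscelli syndrome in people or of dilute, ashen and leaden mice. In epithelial cells, RAB27 and the synaptotagmin-like proteins (SYTL) dock secretory vesicles at the plasma membrane, while myosin Vb and myosin Vc move recycling endosomes and secretory granules toward the apical surface.

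Poly A+ RNA was sequenced from 4 related mammary epithelial lines, with 2 biological replicates of each, grown as acini in Matrigel for 8 days. M1 is MCF10A, an immortalised line that forms no tumors. M2 is MCF10AT1k.cl2, MCF10A cells transfected with activated T24-HRAS and selected by xenografting, which form premalignant lesions. M3 (MCF10Ca1h) and M4 (MCF10CA1a.cl1) came from carcinomas that arose from M2 xenografts, so M2, M3 and M4 share the HRAS transfection. M3 gives well-differentiated carcinomas, and M4 gives undifferentiated carcinomas and colonises the lung. All media held 2% horse serum, hydrocortisone, cholera toxin and insulin. The medium of M1 and M2 held EGF at 10 ng/ml and that of M3 and M4 did not, so line and medium cannot be told apart when M3 or M4 is set against M1. Each line is a single line or clone, and the replicates measure the spread between its cultures only.

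Total counts per library ran from 69669970 to 107350344, with a median of 84947231. The replicates of M2 lay closer together than those of any other line: the median absolute log2 difference between replicates was 0.072 in M2 and 0.232 to 0.326 in M1, M3 and M4. The M2 replicates still differed by more than counting error and were kept apart. Chi-square per degree of freedom was 6.67 in M2, against 236, 296 and 113 in M1, M3 and M4. Exceeding counting error cannot show whether the 2 M2 libraries came from separate cultures. All lines shared 1 estimate of the spread, so the closeness of the M2 replicates bears on the SE and adjusted p of every comparison. The study's own expression tables place the library labelled M1 replicate 2 under M2 and the library labelled M2 replicate 1 under M1. The deposited sample labels were followed, and where the exchange of this pair ends a call, that is stated beside it. In M2 against M1, edgeR called 622 of 18431 genes as labelled and 0 with the pair exchanged. Which assignment is right was not tested. HRAS did not differ between M2 and M1 (log2 fold change 0.10 ± 0.147 SE, edgeR adjusted p = 0.736) in counts that add the mutant and the normal allele. It was higher than in M1 by 1.03 ± 0.148 in M3 (adjusted p = 0.0038, or 0.0658 with the pair exchanged) and by 1.23 ± 0.149 in M4 (adjusted p = 0.00119, or 0.0139 with the pair exchanged). All 4 markers of mammary basal epithelium and all 4 of epithelium on the lists used were detected. Of 9 melanocyte markers, 4 reached 10 counts in any library, and TYR and OCA2 were at 0 in all 8 libraries.

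MLPH was almost undetected in M4, at 3 and 2 counts, and MYO5B was at its highest there. Mean levels of both RAB27 genes, all 3 myosin V genes and SYTL4 were higher in M4 than in M1, and those of MLPH, SYTL1, SYTL2 and SYTL5 were lower, not all of them past the limits below. The summed markers of basal epithelium also differed between the lines, at 7087 to 9258 CPM in M1 and 3820 to 4305 in M4, as did those of epithelium, at 1372 to 1526 CPM in M1 and 3101 to 4759 in M4. KRT5 made up most of the basal sum, at a mean of 7309 CPM in M1 and 3053 in M4. KRT14 and TP63 were also lower in M4 than in M1, while ITGB4 was higher (969 against 752 CPM). KRT8 and KRT18 made up most of the epithelium sum. EPCAM was also higher in M4 (182 against 61.3 CPM), while CDH1 was at 216 in M4 and 203 in M1. The part of these markers in the differences of the 10 genes was not tested. In bulk RNA, fewer cells with a transcript and less of it per cell cannot be told apart. Levels are given as CPM, the counts in every 1000000 of the scaled library total. A gene is said to be past the limits when its edgeR adjusted p, over all genes tested, was under 0.05 and its absolute log2 fold change was above 1. In M4 against M1, 7 of 10 genes were past the limits, beside 20.7% of all genes tested. The 4 higher genes (9.48% of all genes) were RAB27B, MYO5B, MYO5C and SYTL4, and the 3 lower genes (11.2%) were MLPH, SYTL1 and SYTL2. In M3 against M1, 3 of 10 were past the limits, beside 13.5% of all genes: RAB27A was higher (8.02% of all genes) and SYTL1 and SYTL2 were lower (5.51%). In M4 against M3, 2 of 10 were past them, beside 10.3% of all genes: MYO5B was higher (3.99%) and MLPH was lower (6.3%). In M2 against M1, 0 of 10 were past the limits in edgeR, beside 3.37% of all genes (2.26% higher and 1.11% lower), while 7 had an unadjusted p under 0.05 (23.3% of all genes) and DESeq2 placed 3 past the limits (4.5% of the 29419 genes it was run on). The comparisons of M2, M3 and M4 with M1 share the M1 libraries and are not independent of each other.

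**Figure D1:**
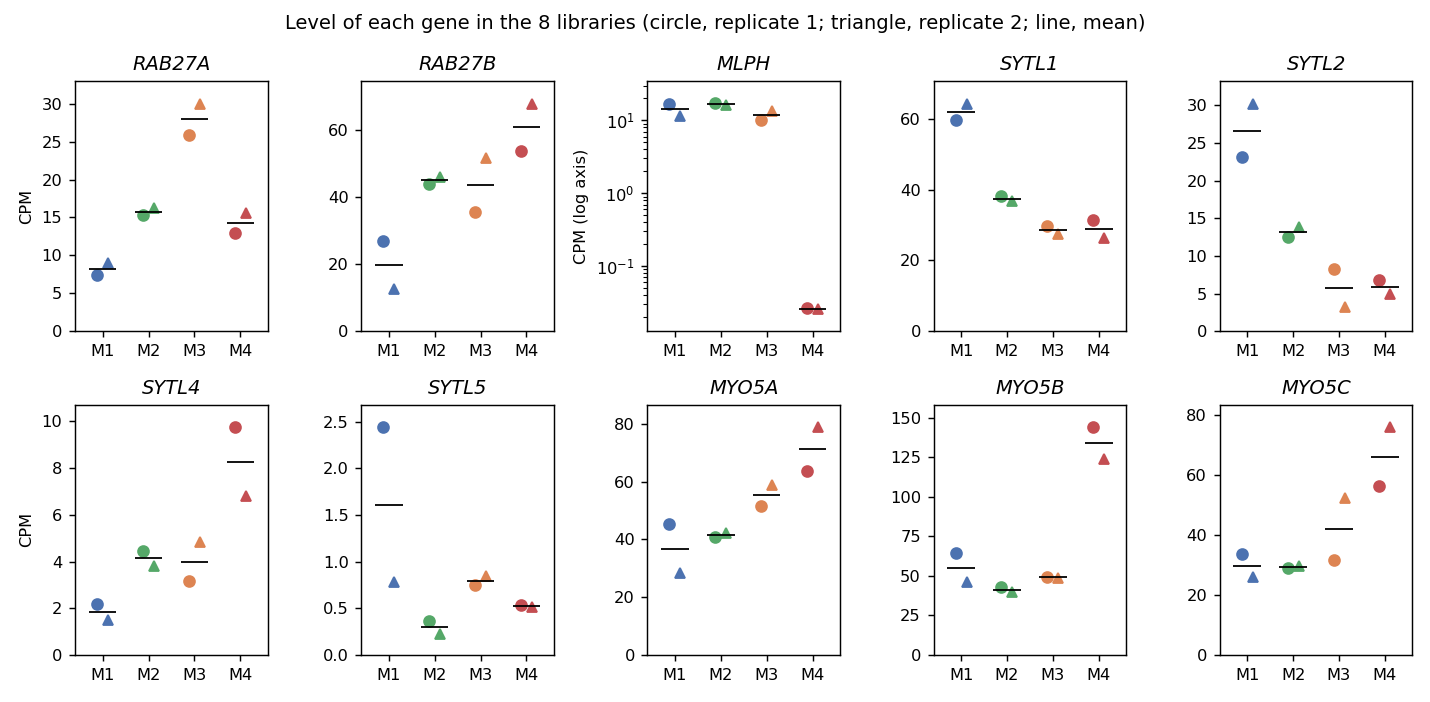
CPM of the 10 genes in the 8 libraries, grouped by line on the x axis; each point is a library, and the line is the mean of the 2 replicates. The MLPH panel has a log axis and the others start at 0; MLPH lies between 10.1 and 17.3 CPM in M1, M2 and M3 and at 0.0264 and 0.0256 CPM in M4.

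The exchange of the 2 libraries changed these counts. With the pair exchanged, 2 genes were past the limits in M4 against M1 (MLPH and MYO5B), beside 8.46% of all genes, and 0 in M3 against M1 in edgeR (3 had an unadjusted p under 0.05, beside 18.2% of all genes), beside 1.19% of all genes. The same 2 genes, MLPH and MYO5B, were past the limits in M4 against M3, beside 4.5% of all genes. As labelled, the CPM of the lines compared did not overlap for 10 of 10 genes in M4 against M1 (67.3% of all genes), for 8 in M4 against M3 (60.2%), for 6 in M3 against M1 (59.4%) and for 7 in M2 against M1 (61%). After the exchange these counts were 8 (59.4% of all genes), 8 (60.2%), 5 (48.7%) and 1 (18.7%) of 10. The median log2 fold change of the 10 genes was 0.88 in M4 against M1, 0.20 in M4 against M3, 0.16 in M3 against M1 and 0.08 in M2 against M1. The median over all genes tested was -0.02 in the first 3 of these comparisons and -0.04 in M2 against M1.

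**Figure D2:**
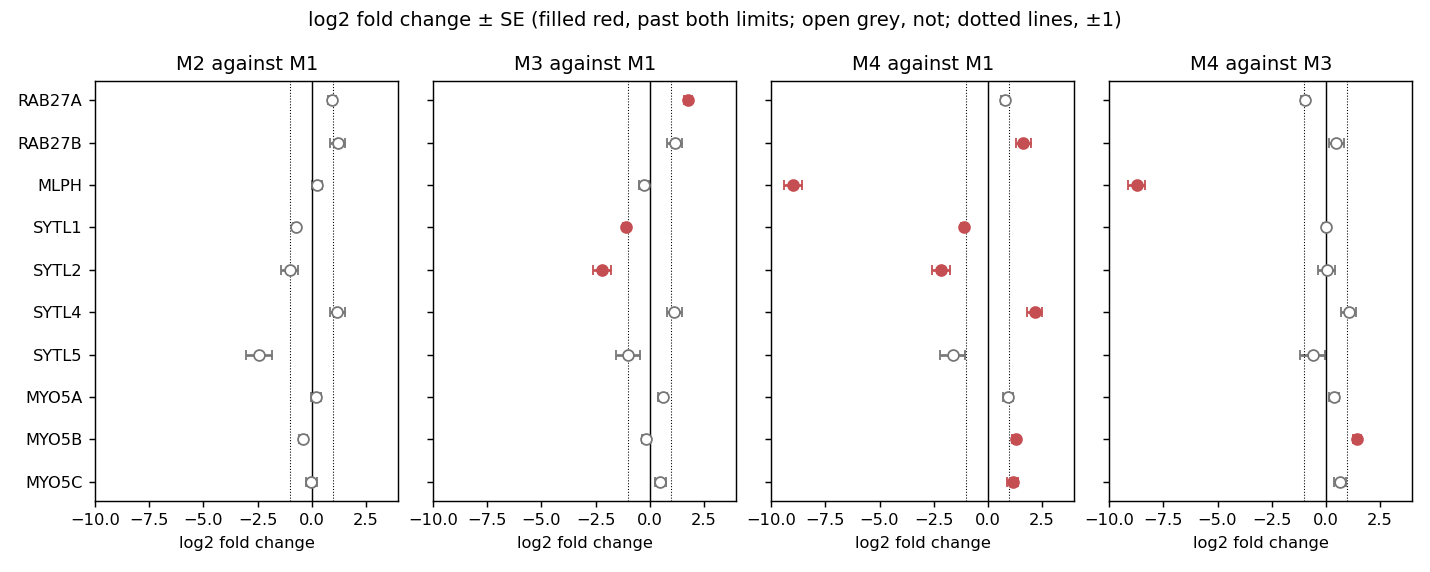
log2 fold change of each gene in the 4 comparisons, with its standard error as the bar; filled red points are past both limits and dotted lines mark a log2 fold change of 1 in either direction. MLPH stands at -9.00 in M4 against M1 and -8.74 in M4 against M3 and near 0 in the other 2 comparisons, and MYO5B stands at 1.28 and 1.45 in the comparisons with M4.

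As labelled, both GTPases had their lowest levels in M1, but with the pair exchanged M1 and M2 overlapped for both, and the log2 fold change of M2 against M1 was 0.15 ± 0.401 for RAB27A and -0.28 ± 0.549 for RAB27B. RAB27A (ENSG00000069974; GRCh37, chromosome 15, 55495164 to 55611311, minus strand) is the form that carries melanosomes and cytotoxic granules. Its level was 7.36 and 8.99 CPM for M1, 15.3 and 16.2 for M2, 25.9 and 30 for M3 and 13 and 15.6 for M4. M3 was the highest line and did not overlap with any other, and M2 and M4, next in order, overlapped with each other. RAB27A differed by a log2 fold change of 1.77 ± 0.189 (SE) in M3 against M1, 0.95 ± 0.185 in M2 against M1 and 0.80 ± 0.185 in M4 against M1. M4 was below M3 by 0.97 on the log2 scale (log2 fold change -0.97 ± 0.185), just inside the fold limit. After the exchange, the difference between M3 and M1 was 1.30 ± 0.407 and was not past the limits. The exons of RAB27A share 154 bases with PIGB on the opposite strand and 183 bases with PIGBOS1 on the same strand, none of them in the canonical transcripts. PIGB lay between 8.55 and 14.7 CPM, so a part of the RAB27A count is uncertain.

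RAB27B (ENSG00000041353; chromosome 18, 52385091 to 52562747, plus strand), the form best known from secretory and glandular cells, had 26.8 and 12.5 CPM for M1, 44 and 46 for M2, 35.5 and 51.6 for M3 and 53.7 and 67.8 for M4. Both M4 libraries were above all others, both M1 libraries were below all others, and M2 and M3 overlapped. In M4 against M1 the log2 fold change was 1.63 ± 0.349. It was 0.78 ± 0.551 and not past the limits with the pair exchanged, and 1.47 and not past them without M4 replicate 2. The M1 replicates differed more for RAB27B than for RAB27A. Per kilobase of canonical transcript, the ratio of RAB27B to RAB27A was 1.79 and 0.685 for M1, 1.41 and 1.39 for M2, 0.673 and 0.847 for M3 and 2.04 and 2.14 for M4. The ratio of M4 was above that of every library of the other lines, and those of M1 replicate 2 and both M3 libraries were under 1 on this scale of length.

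MLPH (ENSG00000115648; chromosome 2, 238394071 to 238463965, plus strand), the melanosome linker, separated M4 from the other lines. Its counts were 1393 and 934 for M1, 1761 and 1131 for M2, 802 and 1164 for M3 and 3 and 2 for M4. In CPM these were 16.8 and 11.4 for M1, 17.3 and 16.1 for M2, 10.1 and 13.4 for M3 and 0.0264 and 0.0256 for M4. M1, M2 and M3 overlapped with their neighbours in order, and M4 lay far below. With 5 counts in M4 in all, M1 was 541-fold above M4 (95% exact interval 232 to 1668), M2 643-fold (275 to 1983) and M3 453-fold (194 to 1397), the intervals covering counting error only. The fitted log2 fold change was -9.00 ± 0.399 in M4 against M1 and -8.74 ± 0.397 in M4 against M3, and depends on the prior count at levels this low. It was 0.24 ± 0.245 in M2 against M1 and -0.26 ± 0.245 in M3 against M1. MLPH was past the limits against both M1 and M3 under 10 of 10 alternatives, the exchanged pair included, with log2 fold changes from -9.28 to -8.53.

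RefSeq (GRCh38.p14) lists MLPH transcripts with 2 start sites, and the 300 bases around each, from 250 before the start to 50 after it, are shown because MLPH is the gene of the list whose transcript was nearly undetected in 1 line. CG dinucleotides, the sites of DNA methylation in mammals, are in capitals. Methylation was not measured here.
MLPH upstream start, chr2:237486160-237486459, plus strand: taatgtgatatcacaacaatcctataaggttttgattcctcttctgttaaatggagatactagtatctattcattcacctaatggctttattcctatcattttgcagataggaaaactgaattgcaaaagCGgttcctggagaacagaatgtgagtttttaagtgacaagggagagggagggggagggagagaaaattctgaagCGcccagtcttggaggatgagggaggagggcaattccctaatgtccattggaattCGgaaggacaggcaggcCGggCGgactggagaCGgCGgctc
MLPH downstream start, chr2:237487001-237487300, plus strand: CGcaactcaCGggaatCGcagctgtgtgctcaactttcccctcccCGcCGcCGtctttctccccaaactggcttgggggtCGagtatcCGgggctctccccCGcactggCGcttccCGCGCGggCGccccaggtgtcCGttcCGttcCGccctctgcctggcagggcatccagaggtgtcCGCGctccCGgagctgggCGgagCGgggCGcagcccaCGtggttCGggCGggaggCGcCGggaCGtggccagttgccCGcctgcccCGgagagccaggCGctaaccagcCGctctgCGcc
The upstream window held 7 CG and the downstream window 34. Of 35116 promoters of this length, 63.2% had at least 7 and 15.6% at least 34, and the median was 14. Promoters of 9 of the 10 genes were matched, 17 in all. The E-box CACGTG, which reads the same on both strands, was found in 1 of the 17, the downstream MLPH window, and in 7.26% of all promoters. The related E-box CATGTG, or CACATG on the other strand, was found in 0 of the 17 and in 11.1% of all promoters.

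SYTL1 and SYTL2, with MLPH the more abundant effectors in M1 and M2, were highest in M1 as labelled. SYTL1 (ENSG00000142765; chromosome 1, 27668511 to 27680428, plus strand), a RAB27 effector of secretory cells, had 59.6 and 64.2 CPM for M1, 38.1 and 36.8 for M2, 29.7 and 27.5 for M3 and 31.3 and 26.3 for M4. M1 was above M2, M2 was above both carcinoma lines, and M3 and M4 overlapped. Against M1, the log2 fold change was -0.72 ± 0.142 in M2, -1.11 ± 0.143 in M3 and -1.10 ± 0.143 in M4. After the exchange these were 0.05 ± 0.313, -0.77 ± 0.315 and -0.76 ± 0.315, and none was past the limits.

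SYTL2 (ENSG00000137501; chromosome 11, 85405267 to 85522202, minus strand), which docks melanosomes and apical vesicles at the plasma membrane, followed the same order of lines as labelled. It had 23.1 and 30.2 CPM for M1, 12.5 and 13.8 for M2, 8.3 and 3.23 for M3 and 6.84 and 4.96 for M4. M3 and M4 overlapped, and M2 lay between them and M1. Against M1, SYTL2 stood at a log2 fold change of -2.21 ± 0.42 in M3 and -2.17 ± 0.419 in M4. After the exchange the values were -1.62 ± 0.567 and -1.59 ± 0.566, and neither was past the limits. M2 against M1 was at -1.02 ± 0.405 as labelled and at 0.31 ± 0.551, with the lines overlapping, after the exchange. Without M4 replicate 2, SYTL1 at -0.96 and SYTL2 at -1.94 in M4 against M1 were also not past them.

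SYTL4 and SYTL5 were the scarcer effectors in M1 and M2. In M4, SYTL4 averaged 8.26 CPM, above SYTL2 at 5.9 and MLPH at 0.026. SYTL4 (ENSG00000102362; chromosome X, 99926780 to 99987110, minus strand), also called granuphilin, docks insulin granules in beta cells. It had 2.18 and 1.5 CPM for M1, 4.46 and 3.82 for M2, 3.15 and 4.83 for M3 and 9.74 and 6.79 for M4. M4 was the highest line, M1 the lowest, and M2 and M3 overlapped. M4 differed from M1 by a log2 fold change of 2.17 ± 0.355, and 1.32 ± 0.56 and not past the limits with the pair exchanged. SYTL4 overlaps SRPX2 on the opposite strand over 4006 of its 10275 exon bases, 1298 of them in the canonical transcripts. SRPX2 moved with it, at 4.88 and 2.16 CPM for M1, 9.04 and 7.76 for M2, 10.8 and 5.13 for M3 and 25.2 and 13.8 for M4. SRPX2 counts reached 343% of those of SYTL4, the strand setting of the counting is not given in the sources used here, and the part of SRPX2 reads in the SYTL4 values was not tested.

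SYTL5 (ENSG00000147041; chromosome X, 37865806 to 37988072, plus strand), another RAB27-binding protein of the family, had 202 and 64 counts for M1, 37 and 16 for M2, 59 and 74 for M3 and 61 and 40 for M4. In CPM these were 2.44 and 0.781 for M1, 0.363 and 0.227 for M2, 0.745 and 0.85 for M3 and 0.538 and 0.512 for M4. M1 was the highest on average, but M1 replicate 2 lay within the range of M3. The log2 fold change in M2 against M1, -2.43 ± 0.603, was not past the limits.

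Each of the 3 class V myosins had its highest levels in M4. MYO5B (ENSG00000167306; chromosome 18, 47349159 to 47721534, minus strand), the motor of RAB11 recycling endosomes whose loss causes microvillus inclusion disease, had 64.4 and 46 CPM for M1, 42.7 and 40.1 for M2, 49.3 and 48.9 for M3 and 144 and 124 for M4. Both M4 libraries were above all others, and M1 and M3 overlapped. MYO5B in M4 stood at a log2 fold change of 1.28 ± 0.181 against M1 and 1.45 ± 0.181 against M3. It was past the limits in both under 10 of 10 alternatives, with values from 1.05 to 1.57. In M2 and M3 against M1 it was -0.42 ± 0.178 and -0.17 ± 0.178.

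MYO5C (ENSG00000128833; chromosome 15, 52484519 to 52588001, minus strand), the epithelial class V motor of secretory granules, had 33.6 and 25.9 CPM for M1, 29 and 29.5 for M2, 31.6 and 52.3 for M3 and 56.2 and 75.8 for M4. M4 was above all others. M1 overlapped with M2 and with M3, while M3 was above M2. M4 stood above M1 by a log2 fold change of 1.15 ± 0.264. With the pair exchanged it was 1.08 ± 0.278 and not past the limits, and it was 0.97 without M1 replicate 2 and 0.94 without M4 replicate 2, also not past them.

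MYO5A (ENSG00000197535; chromosome 15, 52599478 to 52821329, minus strand), the melanosome motor to which MLPH binds, had 45.3 and 28.3 CPM for M1, 40.9 and 42.1 for M2, 51.7 and 59 for M3 and 63.7 and 78.8 for M4. M4 was above M3 and M3 above the overlapping M2 and M1. The log2 fold change in M4 against M1 was 0.95 ± 0.227, just inside the fold limit, and M4 against M3 was 0.36 ± 0.226. MYO5A in M4 against M1 was past the limits without M1 replicate 1 (1.35) and without M4 replicate 1 (1.11).

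The levels of different genes were compared per length. On the scale of CPM per kilobase of exon union, SYTL1 had the highest mean level of the 10 genes in M1 (11.1 ± 0.589 SD, n = 2) and in M2 (6.71 ± 0.157), RAB27B in M3 (6.08 ± 1.6) and MYO5B in M4 (10.5 ± 1.13). The exon union of MYO5A is 45182 bases and its canonical transcript 12130 bases, so its level on the first scale is low. On the scale of canonical transcript length, chosen after this was seen, SYTL1 ranked 1 in all 4 lines, and MYO5B ranked 2 in M1 and M4. MLPH ranked 4 in M1 and M2, 7 in M3 and 10 in M4 on that scale. The order of RAB27A and RAB27B in M3 depended on the scale: the mean level of RAB27B was 6.08 against 2.46 for RAB27A per kilobase of exon union, and 6.22 against 8.11 per kilobase of canonical transcript.

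Summed per canonical length, the 2 GTPases and the 3 motors were higher and the 5 effectors lower in M4 than in M1. The effectors summed to 39.1 and 40.4 CPM per kilobase for M1, 27 and 26 for M2, 20 and 19.6 for M3 and 19.6 and 16 for M4. The myosins summed to 15.3 and 10.9 CPM per kilobase for M1, 12 and 11.9 for M2, 13.9 and 17.5 for M3 and 28.3 and 30.3 for M4. On this scale, M4 was the line in which the summed level of the motors was above that of the effectors in both replicates. The order depended on the scale. In CPM without length, the motors summed to 133 and 160 in M3 and the effectors to 52 and 49.8. In M2 the motors summed to 113 and 112 CPM and the effectors to 72.6 and 70.8. The GTPases summed to 5.96 and 4.39 CPM per kilobase for M1, 10.7 and 11.3 for M2, 12.6 and 16.1 for M3 and 11.4 and 14.2 for M4. MLPH made up 7.53% to 18.2% of the effector sum in the 6 libraries of M1, M2 and M3, and 0.0361% and 0.0428% in M4. SYTL1 made up 72.7% to 84.9% of that sum in the 8 libraries. SYTL4 made up 12.5% and 10.6% in M4 and at most 6.18% elsewhere, with the SRPX2 overlap applying here too. These sums describe transcripts and say nothing of protein levels.

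**Figure D3:**
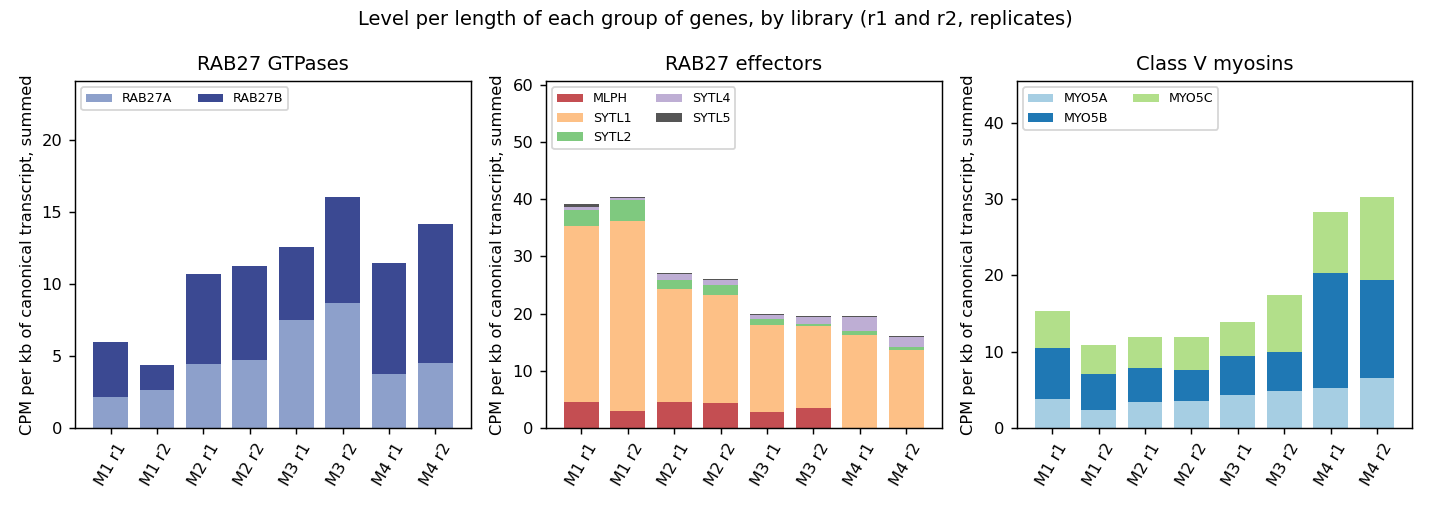
Summed level of the GTPases, effectors and class V myosins in each library, in CPM per kilobase of canonical transcript, with each gene as a stacked part of the bar. The effector bar shrinks from 39.1 and 40.4 in M1 to 19.6 and 16 in M4, where the MLPH part is too small to see, and the myosin bar is highest in M4 (28.3 and 30.3).

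The genes around MLPH were not called lower in M4. Within 500 kb on either side lie 9 other protein-coding genes of the table, of which 8 were tested. In M4 against M1, 0 of the 8 were called lower by edgeR, beside 11.2% of all genes (1 lower at an unadjusted p under 0.05, and 1 by DESeq2). In M4 against M3, 0 were called lower, beside 6.3% of all genes (1 lower at an unadjusted p under 0.05, and 0 by DESeq2). With 8 genes, 0 is not far from these shares. RBM44, UBE2F-SCLY and COL6A3 averaged 0.0424, 0.139 and 0.407 CPM in M1, levels at which a fall is hard to call. RAB17, an epithelial GTPase of recycling endosomes whose gene lies 19 kb beyond the end of MLPH, averaged 23.1 ± 3.98 CPM (SD, n = 2) in the M1 libraries and 30 ± 1.43 CPM in those of M4. This log2 fold change of 0.37 ± 0.163 was not called (adjusted p = 0.119). LRRFIP1, 72.3 kb away, rose by 1.42 ± 0.235 in M4 against M1 (adjusted p = 0.00402), with 108 ± 39.6 CPM in M1 and 289 ± 25.3 CPM in M4, and was not called with the pair exchanged. RAMP1 was measured at 0.521 ± 0.46 CPM in M1 and 0.115 ± 0.000526 CPM in M4 (log2 fold change -2.17 ± 0.742, adjusted p = 0.0588). COL6A3, named after its values were seen, rose in M2 against M1 by 4.85 ± 0.79 (adjusted p = 0.0174), from 0.407 ± 0.00593 to 11.7 ± 0.729 CPM, and was not called with the pair exchanged or with any 1 library of the 4 left out (adjusted p from 0.0553 to 0.113). The fibroblast marker DCN had 34.1 and 1.62 CPM for M1 and 60.2 and 58.6 for M2, while COL6A3 was at 0.411 and 0.403 CPM in the same M1 libraries. The other fibroblast markers listed did not share this rise. COL1A1 had 25.5 and 6.71 CPM for M1 and 13.8 and 13.2 for M2, and PDGFRB 0.471 and 0.268 against 0.324 and 0.526. THY1 was at most 0.0491 CPM in these 2 lines, and COL1A2 was at 0 in all libraries. The part of such markers in the COL6A3 difference was not tested.

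**Figure D4:**
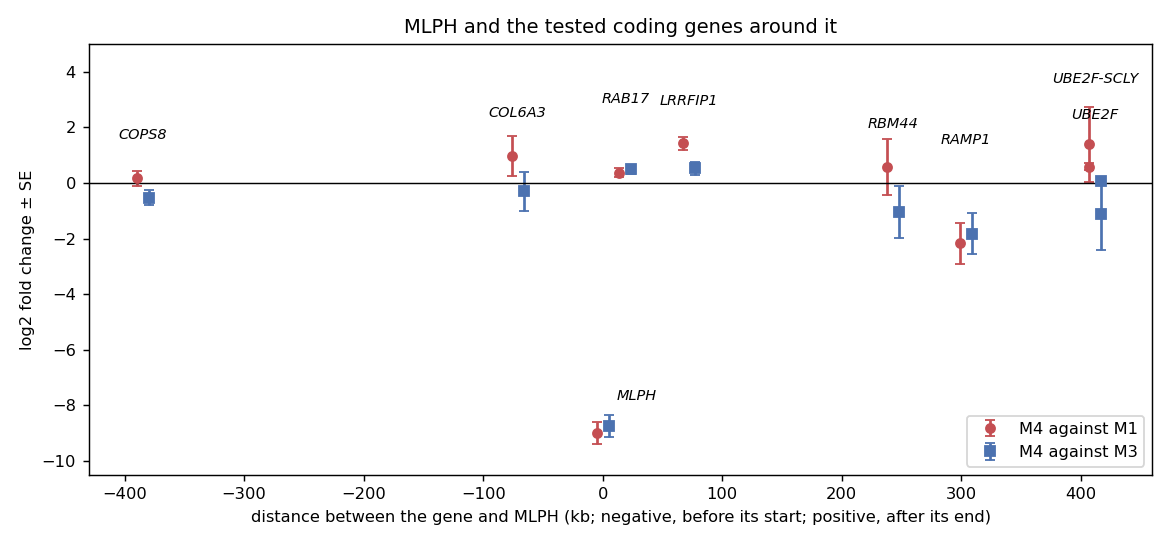
log2 fold change with its standard error, in M4 against M1 (red circles) and M4 against M3 (blue squares), of MLPH and the 8 tested coding genes within 500 kb, by their distance from MLPH in kb. MLPH lies at -9.00 and -8.74, and every neighbour lies between -2.17 and 1.42.

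The genes whose pattern over the 8 libraries was most like that of MLPH were found by the root mean square distance between centred log2 CPM values, among 13083 genes with a mean of at least 100 counts. The closest was AGMAT, which encodes an agmatinase-like enzyme, at a distance of 0.363. Its counts were 418 and 290 for M1, 605 and 389 for M2, 306 and 597 for M3 and 1 and 0 for M4. DUSP2, a phosphatase of MAP kinases (distance 0.541), had 332 to 1611 counts in M1, M2 and M3, and 3 and 1 in M4. LINC01806, a long noncoding RNA (distance 0.612), had 190 to 609 counts and then 0 and 0. MYBPC1, a myosin-binding protein of slow muscle (distance 0.761), had 508 to 1466 counts and then 9 and 1. ADD2, the beta subunit of the membrane-skeleton protein adducin (distance 0.786), had 276 to 1801 counts and then 0 and 1. Ranked by Pearson's r over the same libraries instead, 1 of these 5 genes, AGMAT, was among the closest 5. The likeness is a description over 8 libraries of 4 lines, in which the low M4 libraries weigh most.

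The wider transport machinery was followed in 8 lists of 101 genes, 96 of them tested. In M4 against M1, 14 of 96 were called (14.6%, beside 20.7% of all genes), 9 higher and 5 lower, and the median log2 fold change was 0.31. In M3 against M1, 14 were called (14.6%, beside 13.5% of all genes), 11 higher and 3 lower, with a median of 0.02. In M4 against M3, 7 were called (7.29%, beside 10.3%), 3 higher and 4 lower, with a median of 0.25, and in M2 against M1, 1 was called (1.04%, beside 3.37%), with a median of -0.09. The shares were thus near or below those of all genes. With the pair exchanged, edgeR called 6, 1, 2 and 0 of the 96 transport genes in M4 against M1, M3 against M1, M4 against M3 and M2 against M1. The shares of all genes called were then 8.46%, 1.19%, 4.5% and 0%, in the same order. In M3 against M1, 19 of the 96 transport genes then had an unadjusted p under 0.05 in edgeR, beside 18.2% of all genes.

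Of 5 tested other effectors of RAB27, 1 was called. MYRIP, which links RAB27A to myosin VIIa and myosin Va, was higher in M3 than in M1 by 5.20 ± 1.32 (adjusted p = 0.0288). Only 0 and 2 counts stood against 19 and 66, and the call was lost with the pair exchanged (adjusted p = 0.358), without M1 replicate 1 (0.108) and without M3 replicate 2 (0.144). Of 9 genes that prenylate RAB27 or regulate its GTP cycle, 1 was called: CHML, a Rab escort protein like the one missing in choroideremia. CHML had 9.27 and 7.01 CPM in M1 and 34 and 39.3 CPM in M4 (log2 fold change 2.17 ± 0.344, adjusted p = 0.00339, or 0.227 with the pair exchanged). CHM itself, at 27.6 ± 7.12 CPM in M1 and 38.4 ± 0.117 in M4, was not called.

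Of 17 partners of the class V myosins, 1 was called lower in M4 against M1 and 2 higher in M3 against M1. RILPL2, which binds the globular tail of myosin Va, fell from 15.9 and 18.4 CPM in M1 to 6.55 and 5.94 CPM in M4 (log2 fold change -1.46 ± 0.183, adjusted p = 0.00138, or 0.0503 with the pair exchanged). CALM2, a calmodulin gene whose protein is the light chain of myosin V, rose from 255 and 281 CPM in M1 to 750 and 636 CPM in M3 (1.37 ± 0.152, adjusted p = 0.00147). RAB8B, a GTPase of vesicle delivery, rose in M3 against M1 by 1.27 ± 0.214 (adjusted p = 0.00669). CALM2 and RAB8B were not called with the pair exchanged (adjusted p = 0.187 and 0.147). RAB11A and RAB25, cargo GTPases of myosin Vb, were not called in any of the 4 comparisons, and RAB11A stood at 130 ± 13.8 CPM in M1 and 136 ± 16 in M4.

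Of 15 tested other unconventional myosins, 3 were higher and 1 lower in M4 against M1. MYO7A, the motor that MYRIP binds, rose by 2.22 ± 0.605 (adjusted p = 0.0273). MYO1E rose by 1.03 ± 0.145 in M4 (adjusted p = 0.00216) and by 1.07 ± 0.145 in M3 (adjusted p = 0.00302), each against M1. MYO1F, a myosin of leukocytes at 0.406 ± 0.281 CPM in M1 and 0.0348 ± 0.013 CPM in M4, fell by 3.45 on the log2 scale (adjusted p = 0.0169). Summed leukocyte markers were 24.8 and 14.4 CPM for M1 and 2.12 and 1.24 for M4, mostly CD14, with CD3E at 0 in all libraries, and their part in it was not tested. The MYO1F call was lost with the pair exchanged (adjusted p = 0.118), without M1 replicate 1 (0.0773) and without either M4 replicate (0.0688 and 0.0997). The MYO7A call was lost in the fit of M1 and M4 alone (adjusted p = 0.0772), without M1 replicate 1 (0.0647) and without M4 replicate 1 (0.142). MYO1E in M3 was at 0.91 without M3 replicate 2, under the fold limit.

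Of 11 tested other secretory and epithelial RABs, 1 was higher and 3 were lower in M4 against M1. RAB26 is a GTPase of secretory granule maturation. It had 15.2 and 10.6 CPM for M1, 6.07 and 5.97 for M2, 3.71 and 3.09 for M3 and 1.27 and 0.769 for M4. As labelled, no lines overlapped, but with the pair exchanged M1 (15.2 and 6.07) and M2 (10.6 and 5.97) did. RAB26 fell by 3.65 on the log2 scale in M4 against M1 (log2 fold change -3.65 ± 0.347, adjusted p = 0.000466), a call kept under 10 of 10 alternatives. In M3 against M1 it fell by 1.92 (adjusted p = 0.00647, or 0.169 with the pair exchanged), and in M4 against M3 by 1.73 (adjusted p = 0.0137, or 0.104 with the pair exchanged and 0.0666 without M4 replicate 2). The exocytic GTPase RAB3D was lower in M4 than in M1, at 23.9 ± 3.65 against 55.5 ± 11 CPM (-1.22 ± 0.179, adjusted p = 0.00254). RAB32 and RAB38 serve together in melanosome biogenesis. RAB32 rose in M4 against M1 by 1.29 ± 0.296 (adjusted p = 0.0143), a call lost with the pair exchanged (0.0763), without M1 replicate 2 (0.0712) and without M4 replicate 1 (0.077). RAB38 was lower in M4 than in M3 by 1.02 on the log2 scale (-1.02 ± 0.179, adjusted p = 0.0111), and was not called with the pair exchanged. RAB31, at 1.47 and 1.75 CPM in M3 and 0.0705 and 0.167 CPM in M4, was lower in M4 than in M3 (-3.78 ± 0.538, adjusted p = 0.00612, or 0.0504 with the pair exchanged). RAB31 against M1, higher in M3 by 1.92 ± 0.485 and lower in M4 (-1.86 ± 0.523), and RAB3A, higher in M3 by 1.20 ± 0.324, were called (adjusted p = 0.029, 0.0301 and 0.0354), and lost the call under 6, 4 and 6 of 10 alternatives.

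Of 12 genes of vesicle docking and fusion, 3 were higher in M4 than in M1 and none was lower. STX3, the syntaxin of apical membranes, had 18 and 19.1 CPM for M1, 10.9 and 11.2 for M2, 17.9 and 20 for M3 and 65.4 and 60.4 for M4. It rose in M4 by 1.76 ± 0.141 against M1 (adjusted p = 0.000268) and by 1.73 ± 0.141 against M3 (adjusted p = 0.00119), both kept under 10 of 10 alternatives. STX2 had 5.54 and 7.17 CPM in M1 and 19.3 and 18.7 CPM in M4 (1.58 ± 0.215, adjusted p = 0.00184), and in M2 against M1 it was the single transport gene called (1.16 ± 0.213, adjusted p = 0.0254). With the pair exchanged STX2 was not called in any of the 4 comparisons (log2 fold change -0.02 in M2 against M1), and the call in M2 was also lost without M1 replicate 1 (adjusted p = 0.0752) and without M2 replicate 1 (0.23) or 2 (0.163). VAMP2, a vesicle fusion protein, fell in M3 against M1 by 1.17 (-1.17 ± 0.219, adjusted p = 0.00985). It was not called with the pair exchanged (adjusted p = 0.281), and it did not pass the fold limit without M1 replicate 2 or without M3 replicate 2 (-0.96).

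**Figure D5:**
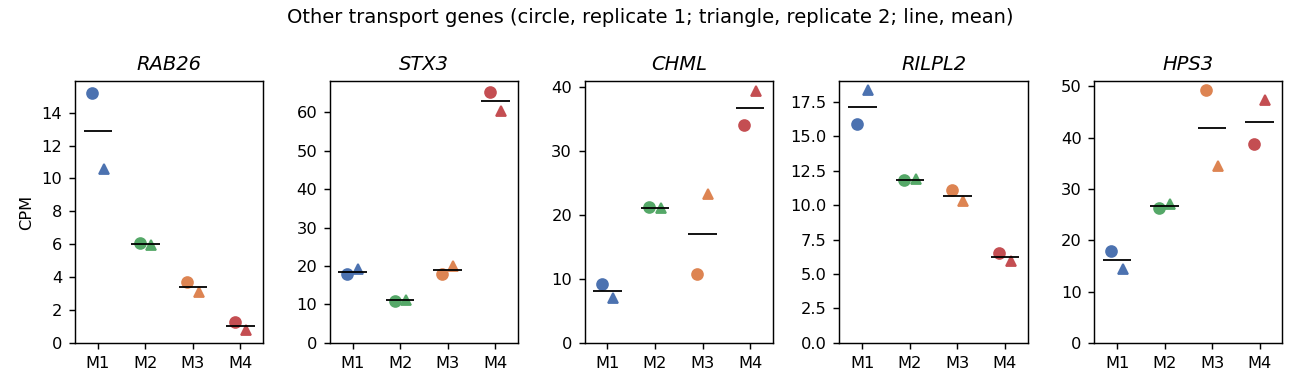
CPM of 5 other transport genes in the 8 libraries, with points for libraries and a line for the mean of each line; every axis starts at 0. As labelled, RAB26 runs from 15.2 and 10.6 CPM in M1 to 1.27 and 0.769 CPM in M4, and STX3 and CHML are highest in M4.

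Of 19 genes for the biogenesis of lysosome-related organelles, 1 was called higher in M4 against M1. HPS3, a subunit of the BLOC-2 complex, had 18 and 14.4 CPM in M1, 49.3 and 34.4 CPM in M3, and 38.7 and 47.3 CPM in M4. It rose by 1.41 ± 0.215 in M4 (adjusted p = 0.00297) and by 1.37 ± 0.215 in M3 (adjusted p = 0.00514) against M1, and was not called with the pair exchanged (adjusted p = 0.129 and 0.229). BLOC1S6, the pallidin subunit of BLOC-1, rose in M3 against M1 by 1.05 ± 0.179 (adjusted p = 0.00698), a call lost with the pair exchanged (0.256) and, through the fold limit, without M1 replicate 2 (0.86) or M3 replicate 2 (0.96). LYST, the gene of Chediak-Higashi syndrome, was lower in M3 than in the lines on either side, with 25 and 19.8 CPM in M1, 10.3 and 11.7 CPM in M3, and 24.2 and 26.5 CPM in M4. Its rise from M3 to M4, 1.20 ± 0.174 (adjusted p = 0.0064), was called under 10 of 10 alternatives, while its difference between M3 and M1 (-1.03 ± 0.174, adjusted p = 0.00671) was not called with the pair exchanged (0.113) and was under the fold limit without M1 replicate 1 (-0.85) or M3 replicate 1 (-0.93). Of 8 exosome and multivesicular body markers, 0 were called by edgeR or DESeq2 in any of the 4 comparisons. The number with an unadjusted p under 0.05 in edgeR was 0 in M2 against M1 and 2 in each other comparison. Of all 18431 genes, 4303, 6752, 7960 and 6229 were under it in M2, M3 and M4 against M1 and M4 against M3. CD63, the tetraspanin of these bodies, stood at 378 ± 63.5 CPM in M1 and 429 ± 59 in M4.

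MITF is a transcription factor on the list of melanocyte markers, and its relation to MLPH was not tested. It had 17.4 and 7.37 CPM for M1, 4.22 and 3.94 for M2, 4.32 and 3.41 for M3 and 20.7 and 14.9 for M4. The M1 and M4 libraries overlapped for MITF. It made up most of the summed melanocyte markers. These ranged from 8.17 to 18.2 CPM in M1, 4.59 to 5.01 in M2, 4.16 to 5.37 in M3 and 16 to 22.6 in M4.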

How the data were processed

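Poly A+ RNA-seq of 8 libraries was taken up at the gene table that the authors deposited, which holds expected counts. The authors trimmed reads with Trimmomatic, aligned them to hg19 with STAR and estimated counts with RSEM on GENCODE v19; versions and the strand setting are not given in the sources used here. The deposited expected counts were rounded (12.8% were not whole). The 10 genes and the lists were chosen with earlier results of these data known. Lines were compared in R 4.3.3 with the robust quasi-likelihood test of edgeR 4.0.16 (TMM scaling, filterByExpr, a coefficient for each line, all 8 libraries in the fit) and Benjamini-Hochberg adjustment over 18431 genes. A call needed an adjusted p under 0.05 and an absolute log2 fold change above 1, and the SE was derived from the F statistic. CPM uses TMM-scaled totals, and genes were matched to GENCODE release 44 on GRCh37 (94.7% of genes with a count). DESeq2 1.42.0, other scalings, filters and designs, the exchanged pair and leaving out each replicate were alternatives. Scripts were tested on simulated data. Named beside the 10 genes were HRAS, up to 2 called genes with the largest rise and 2 with the largest fall per list and comparison whose lines did not overlap, called neighbours of MLPH, and its 5 most similar genes. Other genes were chosen after their values were seen. Replicate numbers did not pair the libraries. Results for 2 further genes are not reported here.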

Additional observations from a re-analysis of the deposited data

How the results depend on the processing

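MLPH and MYO5B in M4 against M1 and M3 kept direction and call under all 10 alternatives, and no called difference of the 10 genes changed sign. With M1 replicate 2 and M2 replicate 1 exchanged, the genes past the limits in edgeR fell to 0 of 10 in M3 against M1 and 2 in M4 against M1, the called transport genes to 0 (M2 against M1), 1 (M3 against M1), 6 (M4 against M1) and 2 (M4 against M3), and the called genes near MLPH to 0 in M2 and in M4 against M1. DESeq2 put 3 of the 10 genes past the limits in M2 against M1 (4.5% of all genes) and 5 in M3 against M1 (10.3%). It called 7 transport genes in M2 against M1 (beside the same 4.5%) and 2 genes near MLPH in M4 against M1 (14.3%). Without the filter on low counts the 10 genes gave 4 (M2 against M1, 6.08% of all genes) and 5 (M3 against M1, 11.8%). The transport genes then gave 5 (M2 against M1, 6.08%) and 11 (M4 against M3, 9.91%). The genes near MLPH gave 2 in M3 (11.8%) and 2 in M4 (15.7%) against M1. A fit of only the lines compared called 2 transport genes in M2 and 9 in M3 against M1. The share of all genes called in that fit is not given, so these 2 counts have no baseline.

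The replicate numbers did not pair the libraries (correlations of replicate differences between lines from -0.0837 to 0.226). With a replicate block 2 transport genes were called in M2 against M1 in place of 1, and no count of the 10 genes past the limits changed. Leaving out each replicate gave 0 to 2, 3 to 4, 3 to 8 and 2 to 3 of the 10 genes past the limits in M2, M3 and M4 against M1 and in M4 against M3. It gave 0 to 5, 10 to 13, 10 to 16 and 3 to 8 called transport genes, and 0 to 1, 0 to 2, 1 to 2 and 0 to 1 called genes near MLPH. The lowest values for M4, 3 of the 10 genes and 3 transport genes against M3, came without M4 replicate 2. The cause of these changes was not tested. With 2 libraries per line, differences under about the replicate spread are not resolved, and MLPH in M4 rests on 5 counts.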
